A study of Homo sapiens with 8 samples.

Results

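The inhibitors of cyclin-dependent kinases (CDKs) of the INK4 and CIP families are encoded by 7 genes, CDKN1A, CDKN1B, CDKN1C, CDKN2A, CDKN2B, CDKN2C and CDKN2D. They were taken by symbol from a table of 18406 genes, and each of the 7 was present and was among the 13320 genes tested. RNA sequencing was done on 92.1, an established human uveal melanoma cell line, with 2 libraries in each of 4 groups. The groups were vehicle (DMSO), trametinib (an inhibitor of the kinases MEK1 and MEK2), panobinostat (an inhibitor of histone deacetylases) and the combination. Exposure was 24 h and the labelled dose was 10 nM. The combination label gives 10 nM once for both drugs, so that each drug was used at that dose in the combination is an assumption. The panobinostat label also carries the words for a MEK inhibitor, and the drug name was followed here. All values come from 1 cell line. No label says that the 2 replicates came from separate cultures. The spread behind each p-value may therefore be technical. Sample numbers of the vehicle and trametinib libraries form 1 run, and those of the libraries with panobinostat form another. No label says whether the 2 sets were prepared together. In comparisons between them, the effect of panobinostat and a difference between the sets cannot be told apart.

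Progress through G1 requires cyclin D with CDK4 or CDK6 and then cyclin E with CDK2, which phosphorylate the RB protein and free E2F factors to switch on DNA replication genes. The INK4 proteins p16 (CDKN2A), p15 (CDKN2B), p18 (CDKN2C) and p19 (CDKN2D) bind CDK4 and CDK6 and keep cyclin D off. The CIP proteins p21 (CDKN1A), p27 (CDKN1B) and p57 (CDKN1C) bind whole cyclin-CDK complexes and block CDK2 above all. CDKN1A is widely used as a marker of histone deacetylase inhibition. CDKN2A encodes, from a second upstream start and another reading frame, p14ARF, which restrains MDM2. The amount of p27 protein is set largely by its degradation through SKP2 and CKS1B, so that transcript levels do not give protein levels.

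Promoter sequences are shown for 3 members that rose in the combination, CDKN1A, CDKN2A and CDKN2B, and for CDKN2C, which passed the interaction test of panobinostat with trametinib, a call that ended in 6 of 8 fits that left out 1 library. RefSeq (GRCh38.p14) promoter windows of 250 bases before to 50 bases after the start were matched by symbol for 6 of the 7 members, 9 windows in all, and none was matched for CDKN1C. Capitals mark the GC box GGGCGG on either strand (CCGCCC where it lies on the other strand), a letter string of the kind bound by SP1 and SP3. For CDKN2A both annotated starts are given, the first for p16 and the next for p14ARF. The table has 1 CDKN2A value per library and does not separate them. For CDKN2C 1 of 3 windows is shown, the one with the most GC boxes, and the others are described after the sequences.
CDKN1A (chr6:36678464-36678763, plus strand): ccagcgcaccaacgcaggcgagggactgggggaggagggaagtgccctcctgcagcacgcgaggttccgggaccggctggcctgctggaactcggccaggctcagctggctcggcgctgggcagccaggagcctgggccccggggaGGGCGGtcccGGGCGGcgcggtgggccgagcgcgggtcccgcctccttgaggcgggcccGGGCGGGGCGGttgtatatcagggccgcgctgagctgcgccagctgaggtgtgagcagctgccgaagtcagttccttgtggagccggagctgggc
CDKN2A, p16 start (chr9:21974808-21975107, minus strand): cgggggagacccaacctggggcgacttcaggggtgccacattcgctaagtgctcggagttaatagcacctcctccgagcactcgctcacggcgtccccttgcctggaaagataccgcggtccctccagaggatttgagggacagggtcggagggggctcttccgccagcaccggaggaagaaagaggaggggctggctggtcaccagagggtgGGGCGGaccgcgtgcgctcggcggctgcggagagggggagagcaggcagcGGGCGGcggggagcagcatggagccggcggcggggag
CDKN2A, p14ARF start (chr9:21995275-21995574, minus strand): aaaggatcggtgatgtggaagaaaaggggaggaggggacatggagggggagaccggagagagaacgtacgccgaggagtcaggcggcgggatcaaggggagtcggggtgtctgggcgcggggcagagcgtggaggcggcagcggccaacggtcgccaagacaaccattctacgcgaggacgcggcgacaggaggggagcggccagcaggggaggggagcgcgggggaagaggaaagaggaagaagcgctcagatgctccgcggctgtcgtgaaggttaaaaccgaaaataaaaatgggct
CDKN2B (chr9:22009256-22009555, minus strand): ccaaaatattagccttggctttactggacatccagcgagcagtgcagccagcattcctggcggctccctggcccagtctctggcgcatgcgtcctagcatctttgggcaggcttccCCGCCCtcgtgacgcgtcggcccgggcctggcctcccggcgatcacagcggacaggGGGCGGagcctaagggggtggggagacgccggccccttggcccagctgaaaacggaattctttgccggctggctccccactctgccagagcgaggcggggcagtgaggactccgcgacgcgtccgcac
CDKN2C (chr1:50968456-50968755, plus strand): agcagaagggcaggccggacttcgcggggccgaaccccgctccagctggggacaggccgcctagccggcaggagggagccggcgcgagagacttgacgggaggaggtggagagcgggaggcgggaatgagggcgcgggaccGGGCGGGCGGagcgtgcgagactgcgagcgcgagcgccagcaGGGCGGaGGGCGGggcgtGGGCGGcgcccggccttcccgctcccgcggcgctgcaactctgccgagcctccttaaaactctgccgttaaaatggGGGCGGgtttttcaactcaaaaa

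The GC box was found 4 times in the CDKN1A window, where the last pair overlap, 2 times each at the p16 start and in CDKN2B, 0 times at the p14ARF start and 6 times in the CDKN2C window. It was present in 45.0% of 35116 RefSeq promoter windows of the same length. The E2F-type strings TTGGCGC or TTCCCGC, on either strand, were found 2 times in the CDKN2C window and 0 times in the other 4 shown, against 9.23% of all windows with at least 1. The E-box CACGTG, the AP-1 string TGANTCA, the FOXO string GTAAACA and TATAAA were in 0 of the 5 windows shown, against 7.26%, 7.71%, 3.42% and 11.5% of all windows. The ETS string CCGGAA, on either strand, was found 1 time, in CDKN1A, against 17.2% of all windows. G and C made up 74.3% of the CDKN1A window, 69.0% and 63.3% of the 2 CDKN2A windows, 67.3% of CDKN2B and 71.3% of CDKN2C, with a median of 58.7% over all windows. The other 2 CDKN2C windows, at chr1:50960495-50960794 and chr1:50969995-50970294, held 0 and 1 GC boxes, 0 E2F-type strings and 1 E-box each, with 46.3% and 49.3% G and C. CDKN1B and CDKN2D, not shown, did not pass against vehicle in the limma fit over all libraries. Their windows held 1 and 3 GC boxes, with 62.3% and 68.0% G and C, so CDKN2D had more GC boxes than CDKN2A or CDKN2B. These are matches of letters in short windows and not measured binding.

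Values are normalised read counts, that is, reads divided by a size factor of the library. The libraries held between 6897784 and 16861001 reads, and 1 read was worth between 0.602 and 1.52. The trametinib libraries stood apart from the rest and from each other. Their replicates correlated across genes at r = 0.897, against 0.974 to 0.991 in the other groups, and replicate 2 had 5362 genes at 0, against 2222 to 3743 in the other 7 libraries. The label was checked against melanocyte markers, of which 7 of 7 were present with a summed value of 99940 to 175100. The sum was highest in the trametinib libraries, and DCT, one of the 7, had 14.4 and 4.75 in vehicle, while trametinib gave 1984 and 1912, panobinostat 5.10 and 10.1, and the combination 258 and 236. Defining markers of endothelial cells, 3 in all, had a largest value of 3.06, and CDH5 was at 0 in all 8 libraries. The summed fibroblast markers ranged from 135.4 to 820.8 (mostly COL1A1), the epithelial ones from 3.96 to 80.6 and the immune ones from 614 to 1498 (mostly CD68, with PTPRC at most 11.7). COL1A1 was at 133 and 149 in vehicle and between 510 and 821 in the 6 treated libraries, while COL3A1, DCN and PDGFRB were at most 21.1, and CD68 was between 610.4 and 935.4 except under panobinostat alone (1417 and 1497). The part of these markers in the results was not tested.

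In the limma fit over all libraries, the combination was the only treatment under which every called inhibitor was called higher against vehicle. By limma with Benjamini-Hochberg adjustment over all tested genes, CDKN1A, CDKN1C, CDKN2A and CDKN2B rose in the combination, 4 of 7, and 0 fell. The background in that comparison was 24.5% of genes called higher and 25.5% called lower. With panobinostat alone, CDKN1A, CDKN1C and CDKN2B rose and CDKN2C fell (background 15.0% higher and 15.6% lower, 30.5% in all). Among fits that left out 1 library, this CDKN2C call held only when a trametinib library was left out. The contrast of panobinostat with the combination in direction rests on that call. With trametinib alone, CDKN1C rose and CDKN1A fell (background 23.7% and 27.4%, 51.0% in all). Against trametinib, the combination was higher for 3 members (CDKN1A, CDKN2A and CDKN2B) and lower for 0, with a background of 17.6% higher, 15.2% lower and 32.8% in all. Against panobinostat it was higher for 5 (CDKN1A, CDKN1B, CDKN1C, CDKN2A and CDKN2C) and lower for 0, with a background of 10.9%, 13.1% and 24.0%. Of these 5 calls, only that of CDKN1A held in every fit that left out 1 library. Trametinib against panobinostat was higher for CDKN1B and lower for CDKN1A and CDKN2B, with a background of 18.7%, 23.4% and 42.0%. The median log2 change of the 7 was 0.23 for trametinib, 0.34 for panobinostat and 0.83 for the combination, against -0.073, 0.0021 and 0.031 over all tested genes. The 3 comparisons share the vehicle libraries. With upper quartile scaling the balance of calls over all genes turned in each of the 3. For panobinostat it was 2501 higher and 1551 lower in place of 1994 and 2075, for trametinib 3814 and 3025 in place of 3153 and 3644, and for the combination 3844 and 2857 in place of 3259 and 3403.

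**Figure D1:**
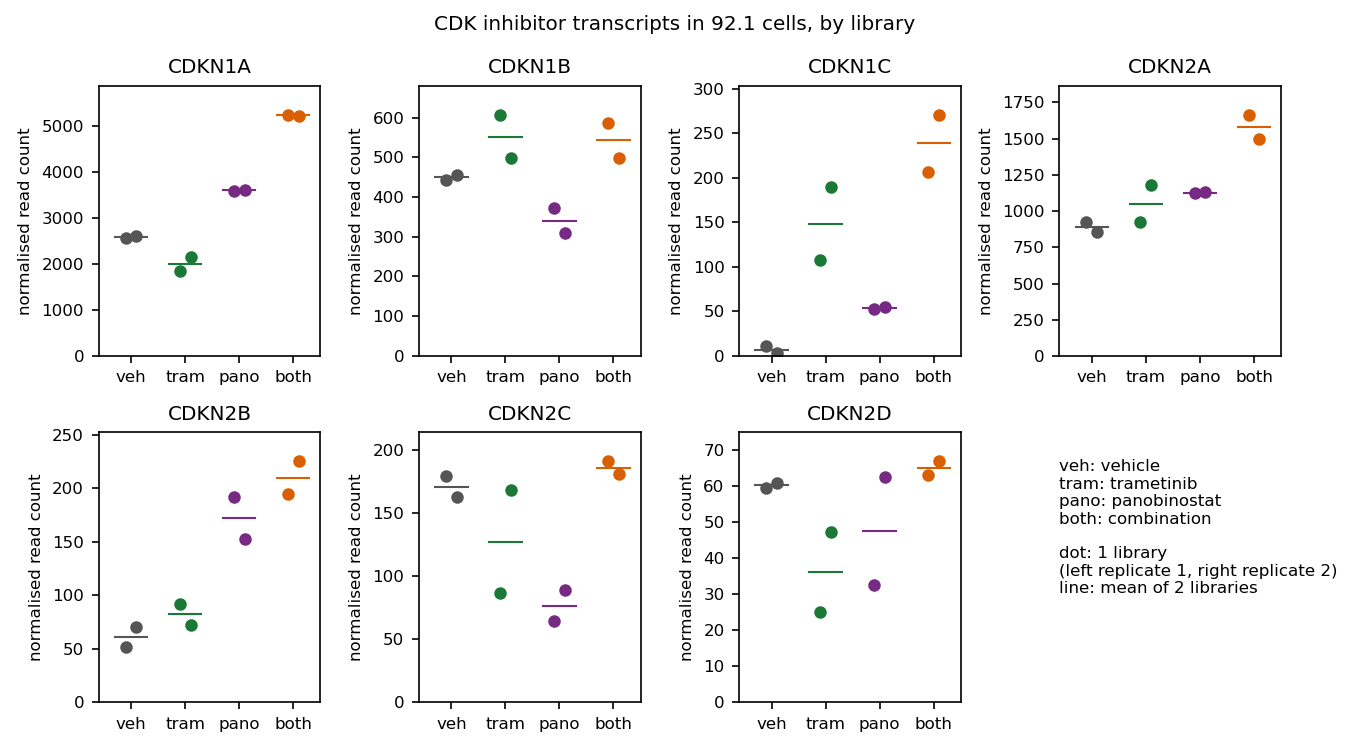
Normalised read count (vertical axis, linear, from 0) of the 7 CDK inhibitor genes in each of 8 libraries, with vehicle (veh), trametinib (tram), panobinostat (pano) and the combination (both) on the horizontal axis. Dots are libraries and lines are means of 2. CDKN1A ran from 1855 to 2158 with trametinib and reached 5223 and 5237 in the combination, and CDKN1C was at 10.8 and 3.17 in vehicle and at 207 and 271 in the combination.

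Of the CIP genes, CDKN1A, which encodes p21, moved in opposite directions with the single drugs and was highest with both. Its values were 2564 and 2601 in vehicle, while trametinib gave 1855 and 2158, panobinostat 3579 and 3611, and the combination 5237 and 5223. No 2 groups overlapped, and the order was trametinib, vehicle, panobinostat, combination. Over all tested genes, the 2 groups of a comparison did not overlap for 61.8% (combination against trametinib) to 83.6% (combination against vehicle) of genes. These shares stand behind each statement below on the overlap of 2 groups. Where more than 2 groups are kept apart together, no share over all genes was computed. Against vehicle the log2 change on the log2(value + 1) scale was -0.37 ± 0.075 with trametinib (± SE, limma adjusted p = 0.00269), 0.48 ± 0.075 with panobinostat (adjusted p = 0.00143) and 1.02 ± 0.075 in the combination (adjusted p = 4.79e-06). The combination exceeded trametinib by 1.39 ± 0.075 (adjusted p = 2.49e-06) and panobinostat by 0.54 ± 0.075 (adjusted p = 0.000749). Each step in this order passed the test, trametinib against panobinostat included (-0.84 ± 0.075, adjusted p = 2.31e-05). The trametinib change was -0.48 without trametinib replicate 2 and -0.26 without replicate 1, and all 7 calls for CDKN1A, the interaction given below included, held in each of the 8 fits that left out 1 library.

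CDKN1B, which encodes p27, passed in no comparison with vehicle in the limma fit over all libraries, but panobinostat was below both groups that held trametinib. It stood at 443 and 456 in vehicle, while trametinib gave 607 and 497, panobinostat 372 and 310, and the combination 587 and 499. The panobinostat libraries were the lowest, for which no share over all genes was computed, and those of trametinib and the combination overlapped. By mean the order was panobinostat, vehicle, combination, trametinib, and no neighbours in it differed by the test. The log2 changes were 0.29 ± 0.15 with trametinib (limma adjusted p = 0.142), -0.40 ± 0.15 with panobinostat (adjusted p = 0.0738) and 0.27 ± 0.15 in the combination (adjusted p = 0.176), with 95% intervals of -0.054 to 0.63, -0.75 to -0.061 and -0.077 to 0.61. The combination exceeded panobinostat by 0.67 ± 0.15 (adjusted p = 0.0111), and trametinib exceeded it by 0.69 ± 0.15 (adjusted p = 0.00551). The first of these calls ended without panobinostat replicate 2 (0.54) or combination replicate 1 (0.55) and the other without panobinostat replicate 2 (0.56), whereas the difference of panobinostat from vehicle passed without trametinib replicate 1 (-0.40) or 2 (-0.40) and that of trametinib without trametinib replicate 2 (0.43). Leaving out a trametinib library kept the panobinostat change as it was and altered only the spread pooled over all groups. The difference of panobinostat from vehicle also passed with DESeq2 (-0.41, adjusted p = 0.0362), library weights (adjusted p = 0.00196) and only the groups compared (adjusted p = 0.00744). That of the combination passed with library weights (adjusted p = 0.0424) and only the groups compared (adjusted p = 0.0461), and that of trametinib with upper quartile scaling (0.43, adjusted p = 0.0391).

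CDKN1C, which encodes p57 and is an imprinted gene, was lowest in vehicle and rose under every treatment. Vehicle replicates had 18 and 4 reads, values of 10.8 (95% Poisson interval 6.42 to 17.1) and 3.17 (0.863 to 8.11). Trametinib gave 107 and 190, panobinostat 53.01 and 54.45, and the combination 207 and 271. No 2 groups overlapped. In single comparisons of 2 groups, 61.8% to 83.6% of all tested genes did not overlap. The share with all 4 groups apart was not computed. The order was vehicle, panobinostat, trametinib, combination, in which vehicle and panobinostat were the only neighbours that differed by the test. The ratio of group means to vehicle was 21.2 for trametinib, 7.68 for panobinostat and 34.1 for the combination. The log2 changes were 4.36 ± 0.53 (limma adjusted p = 0.00011), 2.96 ± 0.53 (adjusted p = 0.00278) and 5.08 ± 0.53 (adjusted p = 4.15e-05). These lay at the 99.8th, 99.2nd and 99.7th percentile of all tested genes in the 3 comparisons. The other members called higher in the combination ranked lower, with CDKN1A at the 82.9th, CDKN2A at the 78.7th and CDKN2B at the 92.5th percentile.

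The size of the CDKN1C rise moved with the vehicle libraries. Without vehicle replicate 1 the 3 log2 changes were 5.11, 3.71 and 5.83, and without vehicle replicate 2 they were 3.60, 2.21 and 4.33. The intervals on reads cover counting error only and not the spread between libraries. They treat each read as independent, and reads of an amplified library can be copies of 1 molecule, so they may be too narrow. Among treated groups, the combination exceeded panobinostat by 2.12 ± 0.53 (limma adjusted p = 0.017), a call that ended when panobinostat replicate 1 (2.10), panobinostat replicate 2 (2.14), combination replicate 1 (2.31) or combination replicate 2 (1.93) was left out. The combination did not pass against trametinib (0.73 ± 0.53, adjusted p = 0.317). Trametinib against panobinostat, at 1.39 ± 0.53, missed the threshold with limma (adjusted p = 0.0589), passed with edgeR's quasi-likelihood test (1.47, adjusted p = 0.0168) and DESeq2 (1.48, adjusted p = 0.000571) on recovered reads, and passed without vehicle replicate 1 (1.39) or 2 (1.39) or trametinib replicate 1 (1.80).

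Of the INK4 genes, CDKN2A was well expressed in every library and passed as higher than vehicle in the combination, and under the single drugs only in some of the settings tried. Its values were 922 and 857 in vehicle, while trametinib gave 924 and 1179, panobinostat 1125 and 1130, and the combination 1664 and 1495. The 2 combination libraries lay above the other 6, and how many tested genes do so was not computed. By mean the order was vehicle, trametinib, panobinostat, combination, and only the last step passed the test. The combination exceeded vehicle by 0.83 ± 0.12 (limma adjusted p = 0.000337), trametinib by 0.60 ± 0.12 (adjusted p = 0.00464) and panobinostat by 0.48 ± 0.12 (adjusted p = 0.0162). The changes with trametinib alone (0.23 ± 0.12, adjusted p = 0.133) and panobinostat alone (0.34 ± 0.12, adjusted p = 0.0553) did not pass, and that they differ from the combination rests on the 2 tests just given. The call against panobinostat ended when panobinostat replicate 1 (0.48), panobinostat replicate 2 (0.49), combination replicate 1 (0.41) or combination replicate 2 (0.56) was left out, and that against trametinib ended without combination replicate 1 (0.52). The difference of panobinostat from vehicle passed with limma at a pseudocount of 5 (adjusted p = 0.0477), a mean of at least 50 (adjusted p = 0.046), upper quartile scaling (adjusted p = 0.0206), library weights (adjusted p = 0.000263) or only the groups compared (adjusted p = 0.00112). It also passed with edgeR (0.34, adjusted p = 0.0457) and DESeq2 (0.33, adjusted p = 0.0142) and without trametinib replicate 1 (0.34) or 2 (0.34), that of trametinib passed with upper quartile scaling (0.37, adjusted p = 0.027) and without trametinib replicate 1 (0.41), and trametinib was called below panobinostat without trametinib replicate 2 (-0.29).

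CDKN2B, which encodes p15 and lies beside CDKN2A, was higher in every library with panobinostat than in any without it. The share of all tested genes split in this way was not computed. Values of CDKN2B were 51.8 and 70.5 in vehicle, while trametinib gave 92.3 and 72.3, panobinostat 192 and 152, and the combination 194 and 225. By mean the order was vehicle, trametinib, panobinostat, combination, and only the step from trametinib to panobinostat passed the test. Against vehicle the log2 change was 1.48 ± 0.28 with panobinostat (limma adjusted p = 0.0039) and 1.77 ± 0.28 in the combination (adjusted p = 0.000625). With trametinib alone it was 0.43 ± 0.28 (adjusted p = 0.231), with a 95% interval of -0.21 to 1.06. The combination exceeded trametinib by 1.35 ± 0.28 (adjusted p = 0.00599) and did not pass against panobinostat (0.29 ± 0.28, adjusted p = 0.523). Trametinib was lower than panobinostat by the test (-1.05 ± 0.28, adjusted p = 0.0145), but not when only these 4 libraries were fitted (adjusted p = 0.0565), with library weights (adjusted p = 0.0808) or without panobinostat replicate 1 (-0.89). Without panobinostat replicate 1 the rise over vehicle was 1.32 and just missed the threshold (adjusted p = 0.0501), and without combination replicate 2 the difference from trametinib was 1.24 and missed it too (adjusted p = 0.0574).

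Reads of CDKN2A and CDKN2B can be confused over a short stretch. In GENCODE 29 coding transcripts their longest identical run was 80 bases, and 31 of the 3260 distinct 50-base words of CDKN2A occurred in CDKN2B. Between all other pairs of members the longest run was at most 16 bases. CDKN2B also overlaps the antisense RNA CDKN2B-AS1, which was at 68.0 and 67.3 in vehicle, while trametinib gave 59.2 and 157, panobinostat 39.8 and 56.5, and the combination 104 and 73.0. The sources used here do not state strand-specific counting, so CDKN2B and this RNA cannot be fully separated. CDKN2B-AS1 did not pass in any comparison with vehicle (0.50 ± 0.47, -0.50 ± 0.47 and 0.36 ± 0.47 with trametinib, panobinostat and both).

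CDKN2C, which encodes p18, fell with panobinostat alone and did not pass against vehicle in the combination. Its values were 179 and 162 in vehicle, while trametinib gave 86.2 and 168, panobinostat 64.2 and 88.7, and the combination 191 and 181. The panobinostat libraries lay below those of vehicle and of the combination, while 1 trametinib library lay in the range of panobinostat and the other in that of vehicle. By mean the order was panobinostat, trametinib, vehicle, combination, and no neighbours differed by the test. Panobinostat changed it by -1.17 ± 0.33 (limma adjusted p = 0.025), and the combination exceeded panobinostat by 1.29 ± 0.33 (adjusted p = 0.0196). The combination differed from vehicle by 0.12 ± 0.33 (adjusted p = 0.783), with a 95% interval of -0.62 to 0.87, which does not show that the levels were equal. Trametinib alone gave -0.50 ± 0.33 (adjusted p = 0.233).

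The CDKN2C calls often changed when 1 library was left out. Leaving out a library of a group not compared keeps the change as it is. It alters only the spread pooled over all groups. The fall with panobinostat held only when a trametinib library was the one left out. It missed the threshold when vehicle replicate 1 (-1.09), vehicle replicate 2 (-1.24), panobinostat replicate 1 (-0.94), panobinostat replicate 2 (-1.40), combination replicate 1 (-1.17) or combination replicate 2 (-1.17) was dropped, with limma adjusted p from 0.0536 to 0.167. The call between combination and panobinostat ended when panobinostat replicate 1 (1.06), panobinostat replicate 2 (1.52), combination replicate 1 (1.25) or combination replicate 2 (1.33) was left out. The 2 trametinib replicates differed by a ratio of 1.95. Without trametinib replicate 2 the trametinib change was -0.98 and passed (adjusted p = 0.0035), and the combination was 1.10 above trametinib (adjusted p = 0.0022). Without trametinib replicate 1 the trametinib change was -0.024, and trametinib was 1.14 above panobinostat (adjusted p = 0.000684).

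CDKN2D, which encodes p19, passed in 0 of the 7 comparisons by limma, edgeR or DESeq2, and at an unadjusted limma p under 0.05 in 0 of the 7 as well. Its values were 59.6 and 61.0 in vehicle, while trametinib gave 25.1 and 47.2, panobinostat 32.6 and 62.5, and the combination 63.2 and 66.9. By mean the order was trametinib, panobinostat, vehicle, combination. The combination libraries were the highest, for which no share over all genes was computed. The trametinib libraries lay below vehicle, while the 2 panobinostat libraries differed by a ratio of 1.92. The log2 changes against vehicle were -0.79 ± 0.47 with trametinib (limma adjusted p = 0.189), -0.41 ± 0.47 with panobinostat (adjusted p = 0.566) and 0.11 ± 0.47 in the combination (adjusted p = 0.869). The gene had 25 to 99 reads per library, and the 95% interval with trametinib ran from -1.85 to 0.27. Without trametinib replicate 2 it passed as lower with trametinib (-1.23, adjusted p = 0.0173) and as higher in the combination than with trametinib (1.34, adjusted p = 0.0151).

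**Figure D2:**
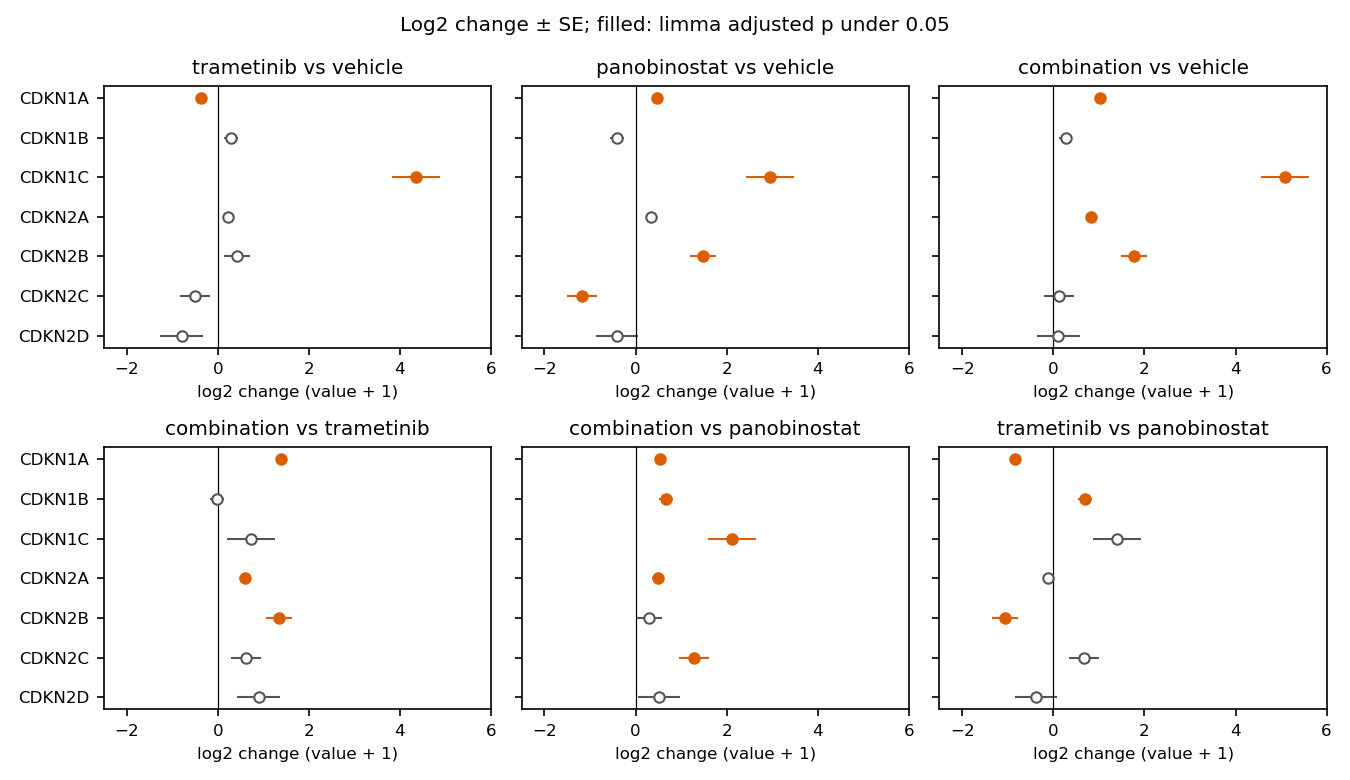
Log2 change ± SE on the log2(value + 1) scale (horizontal axis) of the 7 CDK inhibitor genes (vertical axis) in 6 comparisons of 4 groups with 2 libraries each, from 1 limma fit. Filled points passed an adjusted p of 0.05. The combination against panobinostat has 5 filled points, all above 0, and CDKN1C has the largest rise against vehicle in each of the 3 comparisons, 4.36, 2.96 and 5.08.

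Counts were compared between genes only after division by length, using the longest coding transcript in GENCODE 29. Per kilobase, CDKN1A was highest and CDKN2A next in every group, at 1140 and 693 in vehicle and 2310 and 1230 in the combination. CDKN1B came after these throughout, with 169 in vehicle and 204 in the combination. The other 4 lay between 3.62 and 123. CDKN1C had the lowest of the 7 levels per kilobase in vehicle (3.62) and ranked next after CDKN1B with trametinib (76.8) and in the combination (123). CDKN2C held that rank in vehicle (58.8) and was last with panobinostat (26.3). The sources used here name no annotation for the counting, so these levels are approximate.

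Whether the effect of panobinostat depended on trametinib was tested as an interaction, the log2 change from trametinib to the combination minus that from vehicle to panobinostat. It passed for 2 of the 7 members, both higher, against 10.2% of all genes called higher and 9.04% lower, 19.3% in all. With upper quartile scaling the calls over all genes split into 1077 higher and 1662 lower in place of 1361 and 1204. For CDKN1A panobinostat gave 0.48 ± 0.075 without and 1.39 ± 0.075 with trametinib, a difference of 0.91 ± 0.11 (limma adjusted p = 0.000429). CDKN1A was higher in every library with panobinostat than in any library of the matching group without it. Over all tested genes, the groups did not overlap for 77.2% (panobinostat against vehicle) and 61.8% (combination against trametinib). For CDKN2C the change was -1.17 ± 0.33 without and 0.62 ± 0.33 with trametinib, a difference of 1.79 ± 0.47 (adjusted p = 0.0264). The CDKN2C call ended when vehicle replicate 1 (1.72), vehicle replicate 2 (1.86), panobinostat replicate 1 (1.56), panobinostat replicate 2 (2.02), combination replicate 1 (1.75) or combination replicate 2 (1.83) was left out.

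For CDKN1C the interaction was -2.24 ± 0.74, in the direction of a smaller rise when trametinib was present, and it did not pass with limma (adjusted p = 0.0651). It passed with edgeR (-2.196, adjusted p = 0.0359) and DESeq2 (-2.19, adjusted p = 0.00258), and without vehicle replicate 1 (-2.99) or trametinib replicate 1 (-2.65) or 2 (-1.83). Without vehicle replicate 2, which had 4 reads, it was -1.48 and did not pass, so its size moved with the vehicle libraries. CDKN1B (0.38 ± 0.22), CDKN2A (0.25 ± 0.17), CDKN2B (-0.14 ± 0.40) and CDKN2D (1.30 ± 0.67) did not pass. Of these, CDKN1B passed without trametinib replicate 1 (0.53), and CDKN2A (0.43) and CDKN2D (1.75) without trametinib replicate 2.

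**Figure D3:**
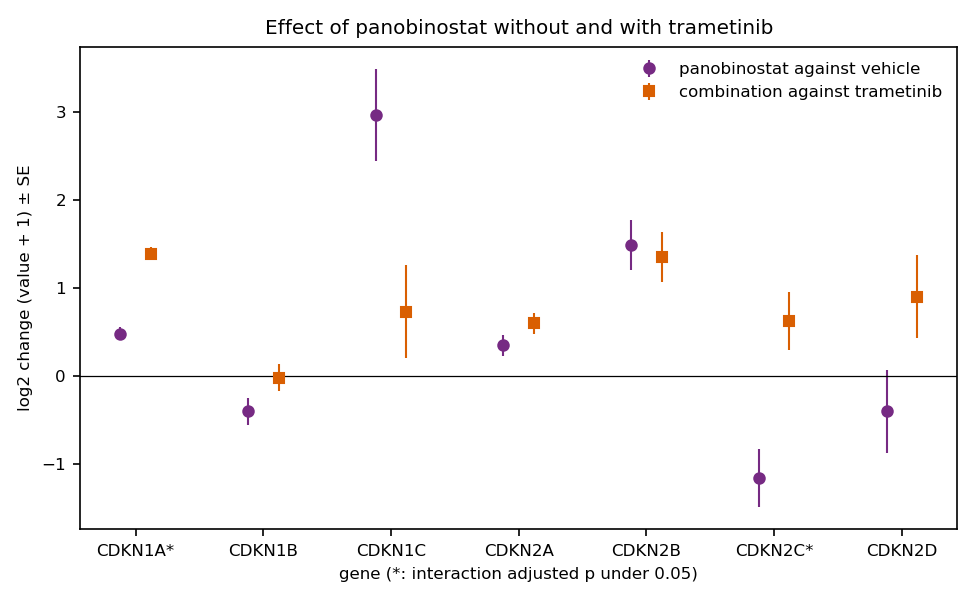
Log2 change ± SE (vertical axis, log2(value + 1) scale) attributed to panobinostat for each of the 7 CDK inhibitor genes, without trametinib (circles, panobinostat against vehicle) and with it (squares, combination against trametinib), 2 libraries per group. For CDKN1A the change was 0.48 without and 1.39 with trametinib, and for CDKN2C it was -1.17 and 0.62.

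The transcripts of the kinases and cyclins that the inhibitors bind moved the other way from CDKN1A in the combination. Of 12 cyclins and CDKs that the inhibitors bind, 10 were tested, and all 10 fell in the combination (median log2 change -1.59). Over all tested genes the shares called lower were 27.4% for trametinib, 15.6% for panobinostat and 25.5% for the combination, those called higher were 23.7%, 15.0% and 24.5%, and the medians were -0.073, 0.0021 and 0.031. With trametinib 8 fell and 1 rose (median -2.17), and with panobinostat 6 fell and 1 rose (median -0.79). CCND1, which encodes cyclin D1, was at 7030 and 7330 in vehicle, while trametinib gave 785 and 632, panobinostat 11070 and 10680, and the combination 1191 and 1114. It thus fell with trametinib (-3.35 ± 0.096, limma adjusted p = 2.2e-08) and rose with panobinostat (0.60 ± 0.096, adjusted p = 0.00164). CDK4 fell with panobinostat (-0.93 ± 0.097, adjusted p = 0.00016) and did not pass with trametinib (-0.22 ± 0.097, adjusted p = 0.0833). CDK2, the main target of p21 and p27, rose with trametinib (1.06 ± 0.076, adjusted p = 3.62e-06) and fell in the combination (-0.31 ± 0.076, adjusted p = 0.00683).

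Of 13 RB and E2F genes, 9 fell and 2 rose with trametinib, 6 fell and 1 rose with panobinostat, and 10 fell and 3 rose in the combination. The medians were -1.71, -1.04 and -1.47, against -0.073, 0.0021 and 0.031 over all tested genes. All-gene shares called lower were 27.4%, 15.6% and 25.5%, and those called higher 23.7%, 15.0% and 24.5%. E2F1 was at 698 and 637 in vehicle and 34.0 and 32.0 in the combination (-4.30 ± 0.28, limma adjusted p = 2.57e-06). RB1 was at 1219 and 1150 in vehicle and 1823 and 1862 in the combination (0.64 ± 0.12, adjusted p = 0.00159). The 14 E2F-driven replication genes fell in each of the 3 treatments, with medians of -3.77, -2.14 and -3.35. MKI67, a marker of cycling cells, was at 2106 and 1906 in vehicle, while trametinib gave 54.2 and 56.3, panobinostat 647 and 646, and the combination 335 and 327. The lowest MKI67 and E2F1 values were thus in the trametinib libraries, where CDKN1A was also lowest. In RNA from whole cultures, fewer cycling cells and less of these RNAs per cell cannot be told apart.

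**Figure D4:**
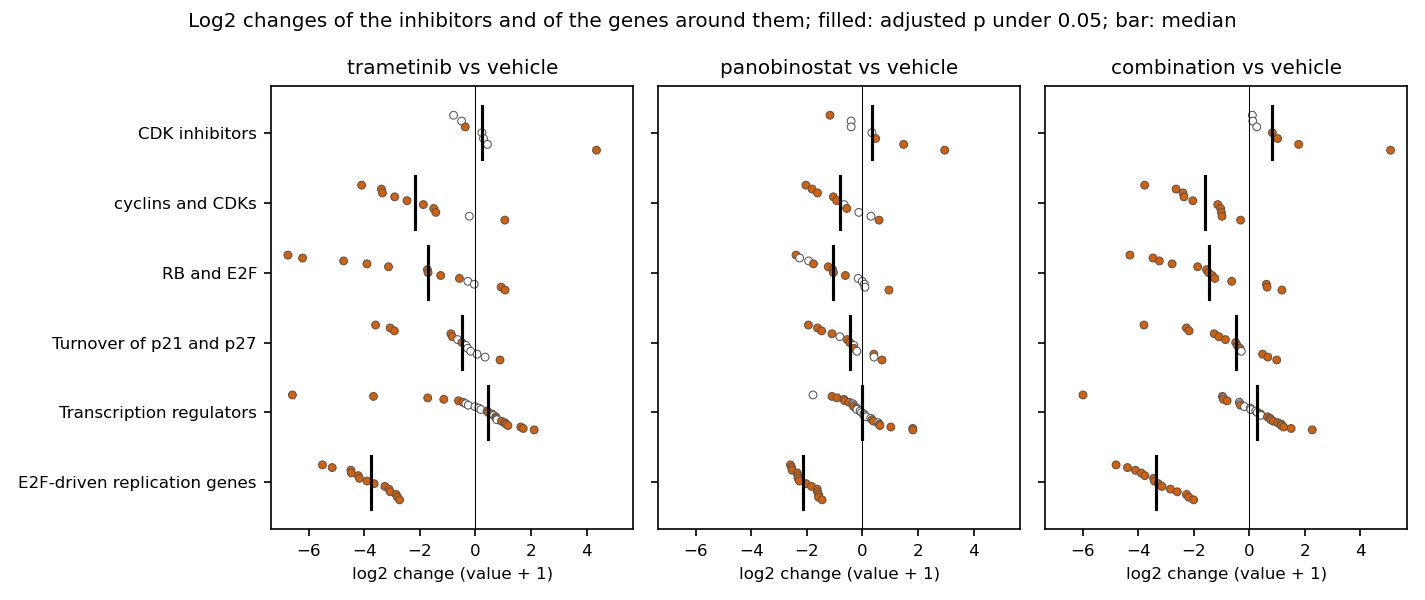
Log2 changes against vehicle (horizontal axis, log2(value + 1) scale) for the 7 CDK inhibitor genes and 5 lists of related genes (vertical axis), 1 panel per treatment, 2 libraries per group. Each point is a gene, filled where the adjusted p was under 0.05, and bars are list medians. In the combination the median was 0.83 for the inhibitors, -1.59 for cyclins and CDKs and -3.35 for replication genes.

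MDM2, which encodes a ubiquitin ligase restrained by p14ARF, was at 1917 and 1881 in vehicle, while trametinib gave 1432 and 1288, panobinostat 2025 and 2138, and the combination 2576 and 2726. The means had the order of CDKN1A, but the step from vehicle to panobinostat did not pass (0.13 ± 0.077, limma adjusted p = 0.234). Its interaction was 0.83 ± 0.11 (limma adjusted p = 0.000811). MYC, which represses CDKN1A and CDKN2B with its partner ZBTB17, was at 4021 and 4133 in vehicle, while trametinib gave 53.2 and 32.2, panobinostat 5921 and 6139, and the combination 44.5 and 89.8. MYC was thus low in the 4 libraries that held trametinib.

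Of 26 transcription regulators of the inhibitors, 25 were tested, of which 12 rose and 6 fell with trametinib, 7 rose and 7 fell with panobinostat, and 11 rose and 5 fell in the combination (medians 0.46, -0.032 and 0.28). The shares over all genes were 23.7% higher and 27.4% lower, 15.0% and 15.6%, and 24.5% and 25.5%. FOXO3, an activator of CDKN1B, rose in each treatment (1.11 ± 0.16, 0.61 ± 0.16 and 1.504 ± 0.16, limma adjusted p = 0.000355, 0.0184 and 5e-05). FOXO1 rose most with panobinostat (1.81 ± 0.10, adjusted p = 8.82e-06). Of 13 genes for the turnover of p21 and p27, 1 rose and 6 fell with trametinib, 2 rose and 7 fell with panobinostat, and 3 rose and 9 fell in the combination (medians -0.49, -0.45 and -0.49). PCNA is in this list and in that of replication genes. SKP2, which marks p27 for degradation, changed by -0.83 ± 0.15, -1.10 ± 0.15 and -1.10 ± 0.15, and its cofactor CKS1B by -2.92 ± 0.20, -1.47 ± 0.20 and -2.17 ± 0.20, all past the threshold (adjusted p from 2.8e-06 to 0.00135).

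Genes that lie near the members were read as well. The all-gene shares are those just given, for trametinib 23.7% higher and 27.4% lower, and the counts rest on 6 and 8 tested genes. Of 11 entries around CDKN2A and CDKN2B, 6 were tested, of which 1 rose and 1 fell with trametinib, 1 rose and 0 fell with panobinostat, and 1 rose and 1 fell in the combination. MTAP, a methionine salvage enzyme gene often deleted together with CDKN2A in tumours, was expressed in every library, at 568 and 652 in vehicle and 179 and 175 in the combination (-1.78 ± 0.18, limma adjusted p = 3.36e-05), opposite to CDKN2A. MLLT3, in the same list, rose in the combination (2.09 ± 0.22, adjusted p = 4.61e-05), as CDKN2A did. Of 10 entries around CDKN1C, 8 were tested, of which 2 rose and 3 fell with trametinib, 2 rose and 1 fell with panobinostat, and 2 rose and 4 fell in the combination. PHLDA2, an imprinted neighbour, was at 449 and 411 in vehicle, while trametinib gave 66.2 and 118, panobinostat 581 and 571, and the combination 65.6 and 53.2. It fell with trametinib (-2.26 ± 0.27, adjusted p = 0.000106) where CDKN1C rose. SLC22A18, in the same list, rose as CDKN1C did, with trametinib (1.90 ± 0.17, limma adjusted p = 1.57e-05), panobinostat (1.13 ± 0.17, adjusted p = 0.00119) and both (1.75 ± 0.17, adjusted p = 2.88e-05). KCNQ1OT1, an antisense RNA of the same imprinted cluster, rose with panobinostat (0.73 ± 0.095, adjusted p = 0.000513) and in the combination (0.76 ± 0.095, adjusted p = 0.00014) and did not pass with trametinib (0.16 ± 0.095, adjusted p = 0.182).

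CDKN3, which carries a similar name but encodes a phosphatase of CDK2 and is not an inhibitor of either family, was at 528 and 539 in vehicle, while trametinib gave 128 and 222, panobinostat 570 and 619, and the combination 464 and 362. It fell with trametinib (-1.65 ± 0.24, limma adjusted p = 0.000309).

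The genes whose profiles were most like each member over the 8 libraries were found by Pearson r on log2(value + 1) among 10417 genes. These r describe libraries that share treatments, and 11 to 582 genes exceeded 0.9 for each of the 6 members that passed in at least 1 comparison (CDKN2D, which did not, was left out). For CDKN1A they were PRKAA2, a catalytic subunit of AMP-activated kinase (0.989), FAM110B (0.986) and CREB5 (0.986). PRKAA2 was at 119 and 116 in vehicle, while trametinib gave 72.2 and 106, panobinostat 300 and 323, and the combination 685 and 589. For CDKN1B they were CCDC159 (0.978), UBR3 (0.969) and MAPK3, which encodes ERK1 (0.962). For CDKN1C they were PCDHB14 (0.993), PALMD (0.993) and the kinase gene STK38 (0.992). PALMD was at 10.2 and 6.33 in vehicle and 103 and 146 in the combination. For CDKN2A they were RB1CC1 (0.988), PDE7A (0.979) and TTC3 (0.977). For CDKN2B they were BRP44 (0.991), ZFHX2 (0.989) and BCL11A (0.987), of which BCL11A had 261 and 282 in vehicle against 764 and 695 under panobinostat. For CDKN2C they were the chromatin remodeller gene ATRX (0.966), TNFRSF1A (0.947) and the helicase gene WRN (0.935).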

How the data were processed

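The deposited table gives 1 normalised signal value per gene and library. TopHat2 2.0.13, Cufflinks 2.2.1 and DESeq2, with no version, are named in the submitters' processing notes. These list genome build hs37d5 for 4 of the 8 libraries, those of vehicle and trametinib, and not for those with panobinostat. Every value was a whole multiple of a fixed step per library, within 1e-06, so the values deposited by the authors are read counts divided by a size factor, and reads were recovered by division. Tests were run in R 4.3.3 with limma 3.58.1, whose prior variance followed mean expression, on log2(value + 1), as 1 fit over 8 libraries and 4 group means (4 residual and 5.32 prior degrees of freedom), for the 13320 genes with a mean of at least 10. A gene passed at a two-sided Benjamini-Hochberg adjusted p under 0.05 over all tested genes. Low values understate changes on this scale. With 2 libraries a group, exact permutation reaches no p below 0.333. Alternatives were edgeR 4.0.16 and DESeq2 1.42.0 on recovered reads, other pseudocounts, filters, scalings, library weights, a replicate block and leaving out each library. A library left out of a group not compared does not alter the change, only the pooled spread behind its test. The scripts were tested on simulated data. Named were all 7 members, a fixed set of related genes, up to 4 genes per list ranked by adjusted p and, for members that passed, the 3 most similar genes with a mean of at least 50. The members and lists were chosen with earlier results of these data known. Symbols are those of the table. Promoter coordinates are in GRCh38.p14, not in the build of the reads. Results for 1 regulator and the list of its targets are not reported here.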

Additional observations from a re-analysis of the deposited data

Results flagged for a closer look

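For 2 members the change with panobinostat differed by whether trametinib was present, by a test of the difference itself. For CDKN1A the interaction was 0.91 on the log2 scale (limma adjusted p = 0.000429), with edgeR at 0.88 and DESeq2 at 0.90. For CDKN2C it was 1.79 (adjusted p = 0.0264), with edgeR at 1.69 (adjusted p = 0.026) and DESeq2 at 1.71 (adjusted p = 0.00196). The CDKN2C call held without trametinib replicate 1 (1.31, limma adjusted p = 0.0028) or 2 (2.26, adjusted p = 3.2e-05). It was lost in the other 6 of 8 fits that left out 1 library (1.56 to 2.02), and the sign was the same in all 8.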

How the results depend on the processing

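No change that had passed the test changed sign under any alternative run. Among the 49 combinations of member and comparison, 49 kept their call with a pseudocount of 0.5, without the filter and with TMM scaling, 46 with edgeR and 45 with DESeq2. Upper quartile scaling moved the median of all genes from -0.073 to 0.065 for trametinib, from 0.0021 to 0.104 for panobinostat, from 0.031 to 0.158 for the combination and from 0.0757 to -0.0404 for the interaction. With this scaling 4 members passed with trametinib, adding CDKN1B (0.43, limma adjusted p = 0.0391) and CDKN2A (0.37, adjusted p = 0.027). Over all genes, library weights gave 7292 calls with panobinostat, 2801 for combination against trametinib and 5072 for combination against panobinostat. Fitting only the groups compared gave 7335, 2256 and 5343, and 3652 for trametinib against panobinostat. The causes were not tested.

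Leaving out 1 library at a time gave 4659 to 8946 genes called for trametinib, 1971 to 6804 for panobinostat and 4700 to 8945 for the combination against vehicle, with 2490 to 7383 for combination against trametinib, 1686 to 5747 for combination against panobinostat, 3572 to 8129 for trametinib against panobinostat and 1308 to 6215 for the interaction. Members called ranged from 2 to 5, 2 to 6, 4 to 4, 2 to 5, 1 to 5, 2 to 5 and 1 to 5 in the same order. Changes of sign were seen in values that did not pass. CDKN2D with panobinostat was 0.052 without panobinostat replicate 1 (range -0.87 to 0.052). CDKN1B in combination against trametinib was 0.12 without trametinib replicate 1 and 0.094 without combination replicate 2 (range -0.17 to 0.12). Trametinib against panobinostat was 0.064 for CDKN2A (range -0.29 to 0.064) and 0.061 for CDKN2D without trametinib replicate 1, and 0.077 for CDKN2D without panobinostat replicate 2 (range -0.84 to 0.077). The CDKN2B interaction was 0.080 without vehicle replicate 1, 0.034 without trametinib replicate 1 and 0.026 without panobinostat replicate 1 (range -0.36 to 0.080).

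Same-numbered replicates did not deviate together across genes (r from -0.0235 to 0.0218), so no large shared replicate effect was seen. This cannot tell whether same-numbered libraries were prepared together, which no label states. The replicate block changed 0 member calls and gave 6673, 3879, 6541, 4229, 3027, 5512 and 2418 genes called in the order above, with 2, 4, 4, 3, 5, 3 and 2 members. Precision is limited by 2 libraries per group, by 18 and 4 reads for CDKN1C in vehicle and by 25 to 99 reads for CDKN2D. Whether depth or replicate spread limits CDKN2D was not tested.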
